A study of Homo sapiens with 15 samples.

Results

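Expression of 9 genes of the Notch pathway was described in A549 cells, a human line from a lung adenocarcinoma with features of the alveolar epithelium. They were the receptors NOTCH1, NOTCH2 and NOTCH3, the ligands JAG1 and JAG2, the receptor-modifying enzyme LFNG, and the target genes HES1, HES4 and HEY1, out of 43388 gene symbols counted. They were chosen by name, with the knowledge that the effect of all-trans retinoic acid (ATRA) on NOTCH3 differed between oxygen exposures in these libraries. NOTCH3 is therefore given as values with their errors and without a p-value, and no member has a test of the difference between the ATRA effects.

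Notch receptors are single-pass membrane proteins that are activated by ligands on neighbouring cells. Binding of a Jagged or Delta-like ligand allows the receptor to be cut by an ADAM protease and then by gamma-secretase, and the released intracellular domain joins the DNA-binding protein RBPJ and Mastermind co-activators to switch on genes of the HES and HEY families, which encode transcriptional repressors. In the lung, the pathway is best known for its part in the choice between secretory and ciliated cells in the airway, and NOTCH3 for its role in vascular mural cells and in airway basal cell progenitors.

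All cells were wild type. They received 1e-05 mM ATRA or its ethanol vehicle for 24 hours, followed by 72 hours of exposure to hyperoxia (95% oxygen) or normoxia (21% oxygen). There were 2 vehicle and 3 ATRA libraries for each oxygen exposure, and 2 more for each exposure whose labels name neither vehicle nor ATRA, called no-vehicle libraries here. A549 is a single tumour line, and nothing in the labels says that libraries of a group came from separate cultures, so that p-values measure only the spread between these libraries, which may be technical. With 2 or 3 libraries in a group, groups can fail to overlap by chance. The share of all genes whose libraries separate between groups was not counted.

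Counts on genes ranged from 2642377 to 5605072 in the 14 labelled libraries, and 3 counts, the upper limit that a count of 0 allows, corresponded to 0.535 to 1.14 CPM (normalized counts on a scale shared by all libraries), covering counting error only. The first no-vehicle library in hyperoxia stood apart. It had counts for 12657 genes against 16465 to 20108 in the other 13, and 1665 of the genes with a median of at least 10 counts were at 0, against 0 to 124 in the others. The members' comparisons between oxygen exposures that use it are therefore given with and without it. The ATRA target CYP26B1 was higher with ATRA by 4.13 in hyperoxia (adjusted p = 2.54e-08) and 3.70 in normoxia (adjusted p = 7.38e-08) on the log2 scale, and the p53 target CDKN1A was higher in hyperoxia with vehicle by 3.34 (adjusted p = 3.34e-12), all by edgeR's quasi-likelihood test. Of the epithelial markers, the keratins KRT8 and KRT18 had 4275 to 23997 and 1890 to 13510 counts, KRT19 and CDH1 had 77 to 539 and 35 to 354, and EPCAM had only 0 to 24. They moved with the groups, and their summed level was 1685 to 1784 CPM with vehicle, 2805 to 4203 CPM with ATRA and 1853 to 2091 CPM without vehicle in hyperoxia, against 5849 to 6804 CPM, 6896 to 9562 CPM and 5743 to 6841 CPM in normoxia. The airway markers SCGB1A1, SCGB3A2 and KRT5 were at 0 in all 14 libraries, FOXJ1 had 0 or 1 count, and TP63 had 0 to 38. Markers of immune cells (PTPRC, 0 or 1 count) and endothelium (PECAM1, 0 to 4 counts) were near 0, and the fibroblast gene COL1A1 had 0 to 38 counts. In normoxia and hyperoxia, COL1A1 had means of 9.19 and 0.839 CPM with vehicle, 3.65 and 1.19 CPM with ATRA, and 6.34 and 0 CPM without vehicle. TP63 had means of 4.92 and 1.28 CPM, 7.03 and 2.37 CPM, and 7.30 and 1.14 CPM in the same order. The part of COL1A1 and TP63 in the oxygen differences was not tested. Endothelial CDH5 had 6 to 20 counts in the normoxia ATRA libraries and at most 1 elsewhere, and its part in the ATRA differences was not tested.

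The promoters of HES1, HES4 and NOTCH3 are shown because HES1 and HES4 are the classical readouts of the pathway and NOTCH3 is the member whose values turned with oxygen. Each is the 250 bases before the RefSeq start in GRCh38.p14, written 5′ to 3′ on the strand of the gene, and capitals mark the core of the RBPJ motif, TGGGAA. The windows are chr3:194135898-194136147 on the plus strand for HES1, chr1:1000098-1000347 on the minus strand for HES4 and chr19:15200996-15201245 on the minus strand for NOTCH3.
HES1: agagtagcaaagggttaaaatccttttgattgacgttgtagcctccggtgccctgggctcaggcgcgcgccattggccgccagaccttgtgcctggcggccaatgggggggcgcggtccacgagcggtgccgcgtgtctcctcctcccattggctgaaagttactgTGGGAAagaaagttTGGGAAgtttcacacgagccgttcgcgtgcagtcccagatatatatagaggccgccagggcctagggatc
HES4: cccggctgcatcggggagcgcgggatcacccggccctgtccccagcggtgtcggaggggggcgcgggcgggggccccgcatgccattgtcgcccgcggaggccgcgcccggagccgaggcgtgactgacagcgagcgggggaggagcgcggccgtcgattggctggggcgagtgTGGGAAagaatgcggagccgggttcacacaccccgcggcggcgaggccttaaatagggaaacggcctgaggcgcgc
NOTCH3: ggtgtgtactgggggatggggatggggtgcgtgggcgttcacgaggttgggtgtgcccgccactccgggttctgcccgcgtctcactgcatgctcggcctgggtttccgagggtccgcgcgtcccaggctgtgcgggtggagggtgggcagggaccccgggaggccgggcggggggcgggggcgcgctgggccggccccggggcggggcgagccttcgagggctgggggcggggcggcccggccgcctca

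The HES1 window holds 2 cores, at 84 to 79 and 70 to 65 bases before the start, and HES4 holds 1, at 76 to 71 bases before it. Searched on both strands, the core is found in 20.8% of 35116 promoters of this length, and 2.9% hold 2 or more. NOTCH3, NOTCH1, NOTCH2, JAG1 and JAG2 have none in this window, and LFNG has 1 at the second of its starts. The retinoic acid receptor half-site AGGTCA, which 12.1% of promoters hold, has no match in the windows of the 8 members with a RefSeq entry. The letters of the HES-binding N-box, CACNAG, match 3 times in HES1, once in NOTCH3, at 211 to 206 bases before its start, and once in LFNG, at 53 to 48 bases before the second of its starts, and occur in 32.0% of all promoters. A match is a description of these letters and not a site shown to be bound.

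Per kilobase of transcript, JAG1 had the highest level of the 9 genes, with a median of 26.2 CPM per kilobase over 14 libraries (range 13.7 to 44.8). NOTCH2 followed with 17.0 (10.4 to 25.4) and NOTCH3 with 7.08 (2.45 to 16.7). JAG1 exceeded NOTCH2 in 12 of the 14 libraries, and NOTCH2 exceeded NOTCH3 in 12. The next genes did not separate beyond their spread, with medians of 4.82 for JAG2, 4.37 for HES4, 3.99 for NOTCH1 and 3.04 for HES1, neighbours in this order keeping it in 8 or 9 of 14 libraries. LFNG had a median of 1.44 and HEY1 of 0.129 CPM per kilobase. HEY1 had 0 to 6 counts in any library and was the only member that did not pass the filter on low counts, so that 8 of 9 members were fitted and, NOTCH3 apart, 7 were tested.

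**Figure D1:**
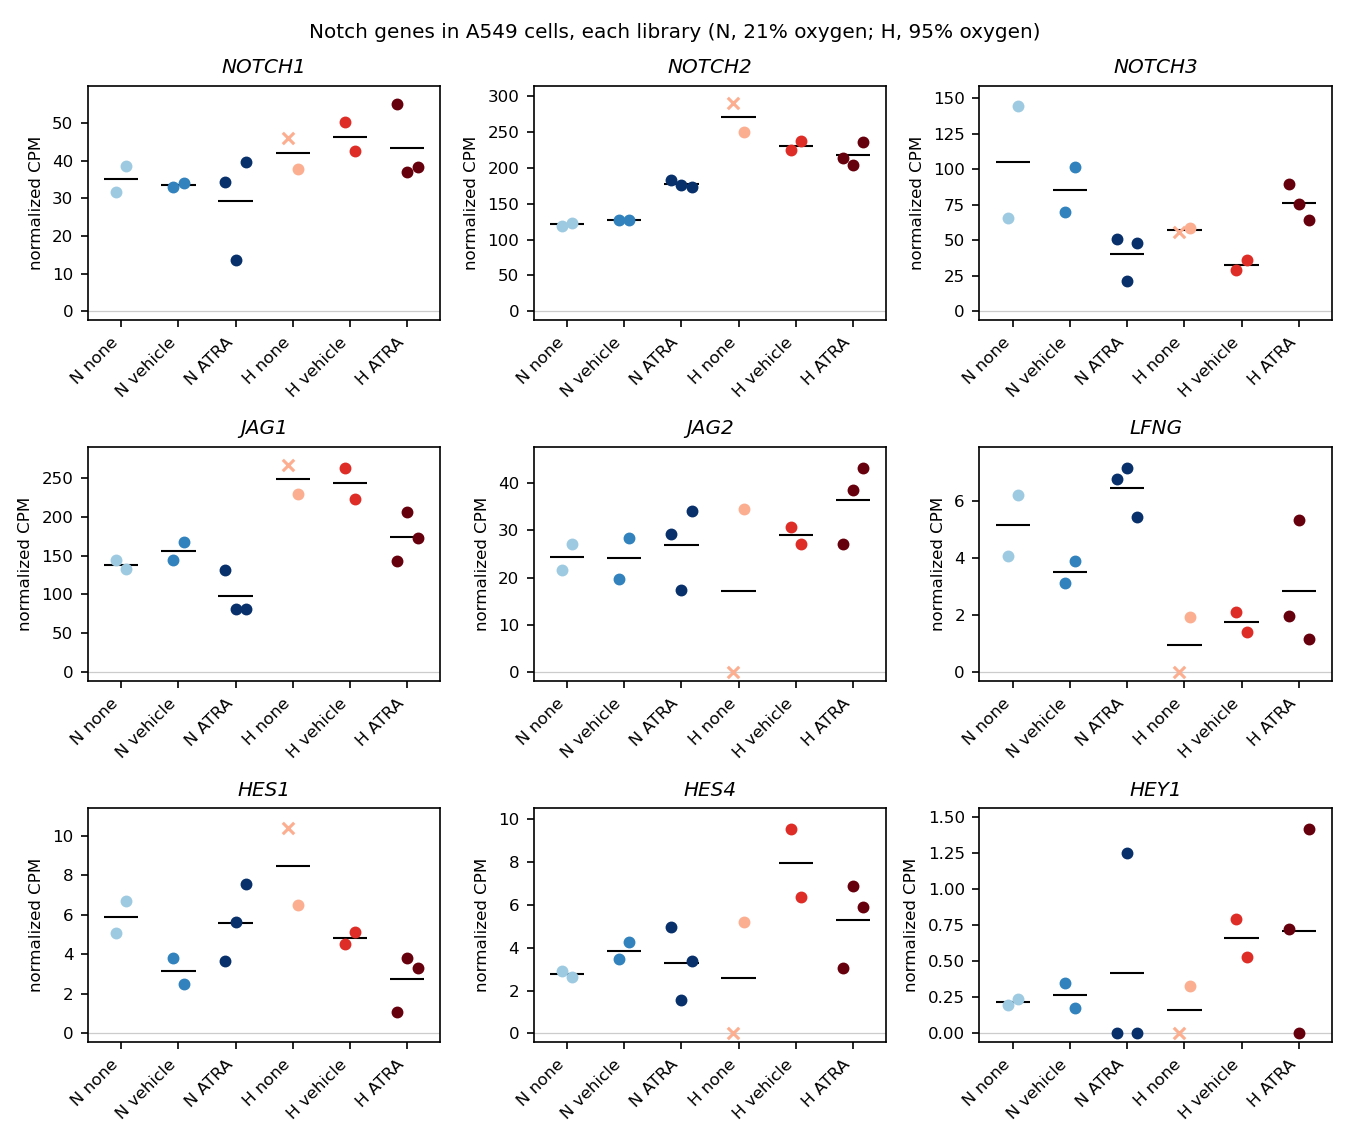
Normalized CPM (y axis, linear, each panel with its own scale) of the 9 Notch genes in each of 14 libraries, by group on the x axis (N, 21% oxygen; H, 95% oxygen; none, no-vehicle libraries). Points are libraries, black lines are group means, and the cross is the first no-vehicle library in hyperoxia. NOTCH3 with ATRA lies above both vehicle libraries in hyperoxia and below both in normoxia, the difference that chose the gene. JAG2, LFNG and HES4 are at 0 in the library marked by a cross.

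NOTCH3, a receptor of mural cells and airway progenitors (chr19:15159038-15200995), was higher with ATRA in hyperoxia and lower with ATRA in normoxia. In hyperoxia it measured 29.4 and 36.0 CPM in the vehicle libraries and 90.0, 75.4 and 64.2 CPM in the ATRA libraries. In normoxia it measured 69.9 and 101 CPM with vehicle and 51.1, 21.2 and 48.1 CPM with ATRA. The ATRA and vehicle libraries did not overlap at either oxygen exposure, in opposite order. The gene was chosen for this difference, so the separation is no further result. In bulk RNA, fewer cells with a transcript and less of it per cell cannot be told apart. The means were 32.7 ± 4.66 CPM (SD, n = 2) and 76.5 ± 12.9 CPM (SD, n = 3) in hyperoxia, 2.33-fold higher with ATRA, and 85.6 ± 22.2 CPM (SD, n = 2) and 40.2 ± 16.5 CPM (SD, n = 3) in normoxia, 2.13-fold lower.

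On the log2 scale, the NOTCH3 difference of ATRA from vehicle was 1.22 (standard error 0.27) in hyperoxia and -1.09 (standard error 0.26) in normoxia. The former minus the latter was 2.31 (standard error 0.37), and it lay between 2.0 and 2.54 when each of the 10 libraries was left out in turn. These values chose the gene and were not tested. Of the 5 epithelial markers, KRT8, KRT18, KRT19 and CDH1 rose with ATRA in hyperoxia, by 1.01, 0.97, 0.99 and 1.28 on the log2 scale (adjusted p = 0.000706, 0.000937, 0.00862 and 0.0153, edgeR), and none of the 5 was called in normoxia. Their part in the NOTCH3 values was not tested. Among all 14957 genes fitted, the difference between the ATRA effects passed an adjusted p of 0.05 for 0.14%. The other members' differences, also given without a test, were -1.71 (standard error 1.04) for HES1, -0.57 (standard error 0.17) for NOTCH2 and between -0.38 and 0.18 for NOTCH1, JAG1, JAG2, LFNG and HES4.

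**Figure D2:**
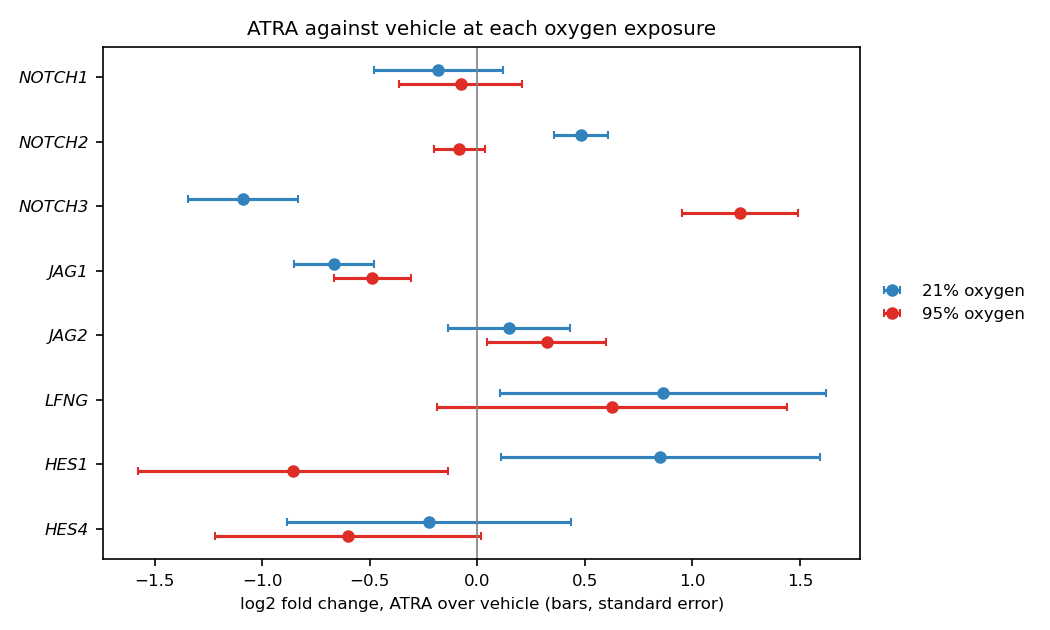
Log2 fold change of ATRA over vehicle (x axis) for the 8 Notch genes that passed the filter (y axis), in 21% oxygen (blue) and 95% oxygen (red), with bars for the standard error. NOTCH3 lies at -1.09 in 21% oxygen and at 1.22 in 95% oxygen, values that chose the gene and were not tested.

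The size of the hyperoxic NOTCH3 difference depended on the control. The no-vehicle libraries measured 55.7 and 58.6 CPM in hyperoxia, above both vehicle libraries and below the 3 ATRA libraries. The log2 difference of vehicle from no vehicle there was -0.80 (standard error 0.38), or -0.83 (standard error 0.40) without the library that stood apart, and ATRA was 0.42 (standard error 0.34) above no vehicle, or 0.38 (standard error 0.38) without the library that stood apart. In normoxia the no-vehicle libraries measured 65.9 and 145 CPM, and the log2 difference of ATRA from them was -1.38 (standard error 0.33). With no-vehicle controls at both exposures, the difference between the ATRA effects was 1.80 (standard error 0.48), or 1.76 (standard error 0.49) without that library.

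Hyperoxia against normoxia took opposite signs for NOTCH3 with vehicle and with ATRA. The gap between these values is the same 2.31 that chose the gene, so it is no separate result. The log2 difference was -1.39 (standard error 0.29) with vehicle and 0.92 (standard error 0.24) with ATRA. Without vehicle it was -0.88 (standard error 0.37), and -0.84 (standard error 0.40) when the hyperoxia library that stood apart was left out. That value rested on the second no-vehicle library in normoxia, at 145 CPM, without which it was -0.25.

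NOTCH2, a widely expressed receptor of the family (chr1:119911553-120069662), was higher in hyperoxia. With vehicle it measured 225 and 237 CPM in hyperoxia and 127 and 127 CPM in normoxia. Without vehicle the values were 290 and 250 CPM in hyperoxia and 119 and 124 CPM in normoxia. With ATRA they were 214, 204 and 235 CPM in hyperoxia and 183, 176 and 173 CPM in normoxia. All 7 hyperoxia libraries exceeded all 7 normoxia libraries. The log2 rise of NOTCH2 in hyperoxia with vehicle was 0.86 (standard error 0.13, adjusted p = 7.85e-05, edgeR over all genes tested). Without vehicle it rose by 1.16 (standard error 0.13, adjusted p = 2.52e-05, edgeR), or by 1.04 (standard error 0.16, adjusted p = 0.000106, edgeR) without the library that stood apart, but a fit of only the groups compared gave an adjusted p of 0.0745. With ATRA the difference was 0.30 (standard error 0.11, adjusted p = 0.0531, edgeR) and did not pass, whereas DESeq2 gave an adjusted p of 0.0316, in a range of 0.0316 to 0.189 over 16 alternatives.

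In normoxia NOTCH2 was 0.48 higher with ATRA than with vehicle on the log2 scale (standard error 0.12), each of the 3 ATRA libraries lying above both vehicle libraries. The adjusted p was 0.0613 in edgeR and 0.00466 in DESeq2, with a range of 0.00253 to 0.59 over 19 alternatives, and it was 0.0403 without the first ATRA library in hyperoxia. In hyperoxia the ATRA libraries, at 204 to 235 CPM, overlapped the vehicle libraries, at 225 and 237 CPM (log2 difference -0.08, standard error 0.12, adjusted p = 0.833, edgeR). The human-specific NOTCH2NL copies share sequence with NOTCH2 and held between 0.0688% and 7.37% as many counts as NOTCH2 in a library, so that reads divided between them are uncertain.

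NOTCH1, the receptor best known from T cell leukaemia (chr9:136494433-136546048), ranged from 37.1 to 55.0 CPM in the 7 hyperoxia libraries and from 13.7 to 39.8 CPM in the 7 normoxia libraries. The lowest value belonged to the second ATRA library in normoxia, which was also the lowest for NOTCH3. Its log2 differences of hyperoxia from normoxia were 0.46 with vehicle (standard error 0.32), 0.57 with ATRA (standard error 0.27) and 0.26 without vehicle (standard error 0.36), or 0.10 (standard error 0.39) without the library that stood apart. None passed the test (adjusted p = 0.378, 0.135, 0.661 and 0.924, edgeR). Its ATRA differences were -0.18 in normoxia and -0.08 in hyperoxia (adjusted p = 0.951 and 0.947, edgeR).

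Within each library, NOTCH3 made up a varying share of the counts on the 3 receptors, a measure that does not depend on scaling between libraries. The share was 30.4% and 38.6% with vehicle in normoxia and 19.0%, 10.1% and 18.4% with ATRA. In hyperoxia it was 9.67% and 11.4% with vehicle and 25.1%, 23.8% and 19.0% with ATRA. The no-vehicle libraries were at 30.4% and 47.2% in normoxia and at 14.2% and 16.9% in hyperoxia. The share of the groups thus had the order of the NOTCH3 means within each exposure. Its numerator is the counts that chose the gene, so this is no separate result, and its denominator carries the NOTCH2 differences.

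**Figure D3:**
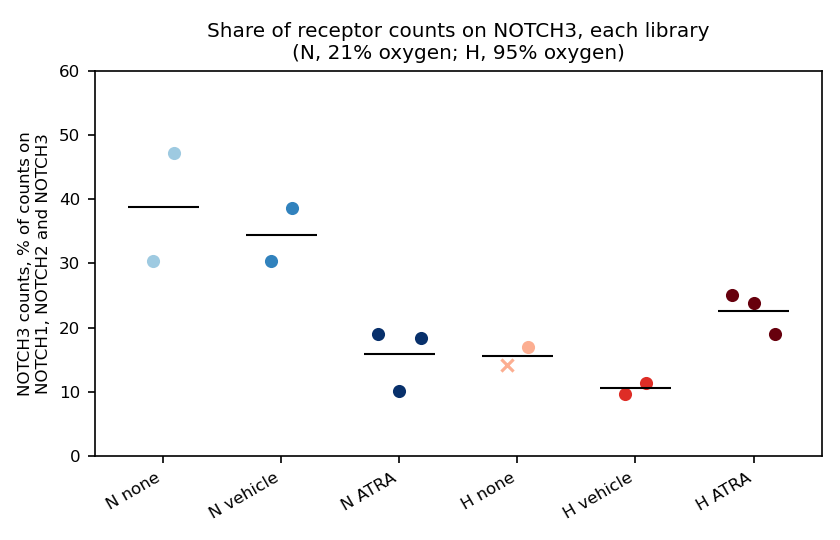
NOTCH3 counts as a percentage of the counts on NOTCH1, NOTCH2 and NOTCH3 together (y axis, from 0) in each library, by group (N, 21% oxygen; H, 95% oxygen; none, no-vehicle libraries). Points are libraries, lines are group means, and the cross is the first no-vehicle library in hyperoxia. ATRA libraries lie at 10.1% to 19.0% in 21% oxygen, below the other groups there, and at 19.0% to 25.1% in 95% oxygen, above the other groups there. The NOTCH3 counts are those that chose the gene.

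JAG1, the Jagged ligand with the highest level here (chr20:10637684-10673999), was higher in hyperoxia within each treatment. It measured 262 and 223 CPM in hyperoxia and 144 and 167 CPM in normoxia with vehicle. With ATRA it measured 144, 206 and 172 CPM in hyperoxia and 132, 81.8 and 81.2 CPM in normoxia. Without vehicle the values were 266 and 229 CPM in hyperoxia and 145 and 132 CPM in normoxia. Hyperoxia and normoxia libraries did not overlap within any treatment.

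The log2 rise of JAG1 in hyperoxia with ATRA was 0.81 (standard error 0.17, adjusted p = 0.00124, edgeR), and its adjusted p stayed between 7.84e-08 and 0.0138 over 16 alternatives. With vehicle it rose by 0.63 (standard error 0.20, adjusted p = 0.0304, edgeR). That call was lost when any one of the 4 vehicle libraries was left out (adjusted p = 0.278 and 0.0701 without the first and the second in hyperoxia, and 0.275 and 0.0887 without the first and the second in normoxia, edgeR). Without vehicle it rose by 0.84 (standard error 0.22, adjusted p = 0.0165, edgeR). Without the hyperoxia library that stood apart this was 0.72 (standard error 0.24, adjusted p = 0.0522, edgeR), and without the first or the second normoxia library the adjusted p was 0.0922 or 0.125. It was 0.13 in a fit of only the groups compared, and the call with vehicle was likewise lost in the fit of all 14 libraries (adjusted p = 0.0852).

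With ATRA, JAG1 was lower than with vehicle at both exposures without passing the test. In normoxia the log2 difference was -0.67 (standard error 0.19, adjusted p = 0.0962, edgeR), and in hyperoxia -0.49 (standard error 0.18, adjusted p = 0.2, edgeR), with every ATRA library below both vehicle libraries at each exposure. DESeq2 gave an adjusted p of 0.0345 in normoxia, in a range of 0.000791 to 0.796 over 19 alternatives, and it was 0.00817 and 0.0402 without the first ATRA library in normoxia or in hyperoxia. In hyperoxia the range was 0.0264 to 0.908 over 20 alternatives.

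JAG2, the other Jagged ligand (chr14:105140995-105168776), was between 17.5 and 43.2 CPM in 13 libraries and at 0 counts in the hyperoxia library that stood apart. It passed the test in no comparison. Its log2 differences of hyperoxia from normoxia were 0.24 with vehicle (standard error 0.31, adjusted p = 0.67, edgeR) and 0.42 with ATRA (standard error 0.25, adjusted p = 0.251, edgeR). Without vehicle the difference was -0.56 (standard error 0.91, adjusted p = 0.71, edgeR) with the library at 0 and 0.50 (standard error 0.37, adjusted p = 0.47, edgeR) without it.

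LFNG, a fringe glycosyltransferase that adds sugars to Notch receptors and changes their response to ligands (chr7:2512529-2529177), had 0 to 26 counts per library. In normoxia it measured 6.78, 7.18 and 5.47 CPM with ATRA, 3.13 and 3.90 CPM with vehicle and 4.10 and 6.24 CPM without vehicle. In hyperoxia the values were 1.98, 5.36 and 1.18 CPM with ATRA, 2.12 and 1.41 CPM with vehicle and 0 and 1.95 CPM without vehicle. Hyperoxia libraries lay below the normoxia libraries of the same treatment in all 3 treatments. With ATRA the nearest libraries were at 5.36 and 5.47 CPM (14 and 21 counts), and the 0 without vehicle belonged to the library that stood apart. The log2 differences were -1.01 with vehicle (standard error 0.86), -1.25 with ATRA (standard error 0.69) and -2.50 without vehicle (standard error 1.21), or -1.39 without the library at 0 (standard error 1.03), and no adjusted p passed (0.492, 0.208, 0.178 and 0.477, edgeR).

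HES1, the repressor most used as a readout of Notch activity (chr3:194136148-194138732), had 6 to 52 counts per library. Its highest value, 10.4 CPM, was in the hyperoxia library that stood apart, and its lowest, 1.08 CPM, in the first ATRA library in hyperoxia. With ATRA it measured 1.08, 3.83 and 3.31 CPM in hyperoxia, below both vehicle libraries at 4.51 and 5.12 CPM, and 3.65, 5.62 and 7.55 CPM in normoxia, where the vehicle libraries were at 3.82 and 2.48 CPM. The ATRA differences were -0.86 (standard error 0.72) in hyperoxia and 0.85 (standard error 0.74) in normoxia on the log2 scale, neither past the test (adjusted p = 0.673 and 0.865, edgeR). Against vehicle, the direction at each exposure was thus opposite to that of NOTCH3, but each difference was close to its own standard error. Against the no-vehicle libraries in normoxia, at 5.07 and 6.72 CPM, the HES1 difference with ATRA was -0.07, so that the opposite direction was lost there. In hyperoxia it stayed below 0 over 20 alternatives. Hyperoxia differed from normoxia by 0.63 with vehicle, -1.07 with ATRA and 0.53 without vehicle, or 0.14 without the library that stood apart, and none passed (adjusted p = 0.665, 0.266, 0.668 and 0.952, edgeR).

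HES4, a related repressor (chr1:998964-1000097), measured 9.54 and 6.36 CPM with vehicle in hyperoxia and 3.48 and 4.26 CPM in normoxia. The groups did not overlap, but each had only 2 libraries. The log2 difference of 1.01 (standard error 0.70, adjusted p = 0.375, edgeR) did not pass the test at 10 to 36 counts per library. With ATRA the values were 3.07, 6.89 and 5.90 CPM in hyperoxia and 4.96, 1.56 and 3.38 CPM in normoxia, which overlap (log2 difference 0.64, standard error 0.59, adjusted p = 0.485, edgeR). Without vehicle the difference was -0.17 (adjusted p = 0.939, edgeR) with the library at 0 and 0.89 (adjusted p = 0.59, edgeR) without it. HEY1, a repressor of the sister family (chr8:79764010-79767767), was too low for comparison, with 4, 0 and 6 counts with ATRA in hyperoxia, 0, 4 and 0 with ATRA in normoxia, and at most 3 in the other libraries.

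**Figure D4:**
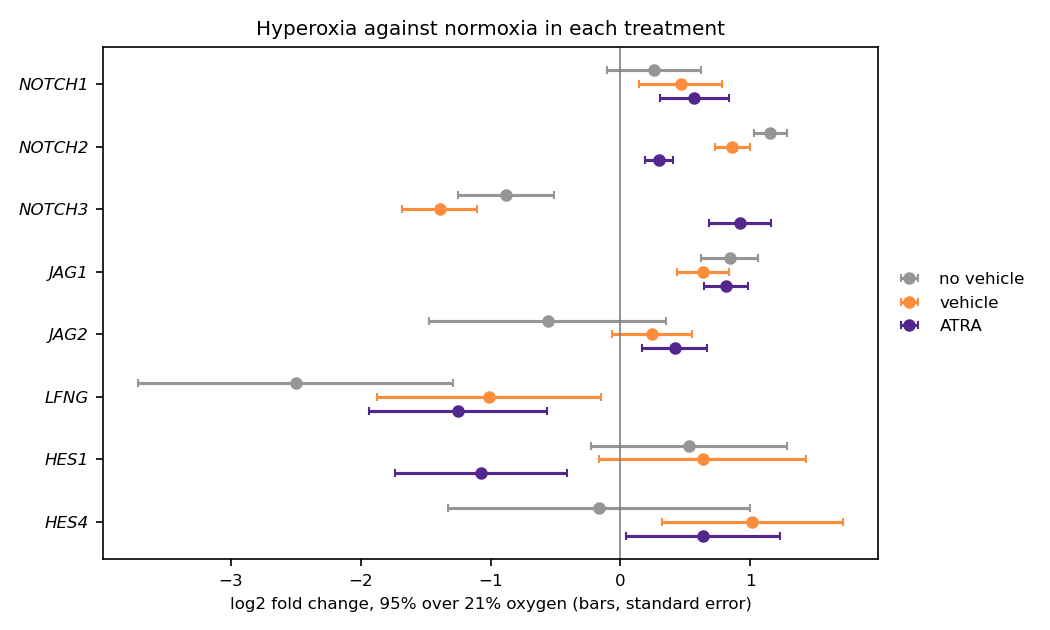
Log2 fold change of 95% over 21% oxygen (x axis) for the 8 Notch genes that passed the filter (y axis), in no-vehicle (grey), vehicle (orange) and ATRA (purple) libraries, with bars for the standard error. NOTCH2 and JAG1 lie above 0 in all 3 treatments, LFNG below 0 in all 3 with wide bars, and NOTCH3 below 0 except with ATRA at 0.92. The NOTCH3 values with vehicle and with ATRA come from the libraries that chose the gene and were not tested.

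Across the 7 tested members, 2 rose in hyperoxia with vehicle (NOTCH2 and JAG1) and none fell, where 17.5% of all 14957 genes passed, with 8.68% higher. With ATRA 1 rose (JAG1), where 22.7% of all genes passed, with 11.4% higher. Without vehicle 2 rose (NOTCH2 and JAG1), where 15.2% of 15339 genes passed and 7.57% were higher, and without the library that stood apart 1 (NOTCH2), where 10.5% passed and 5.36% were higher. These counts are near what the share over all genes gives for so few genes. For ATRA against vehicle, 0 of 7 passed in hyperoxia in edgeR, where 2.21% of all genes did. An unadjusted p under 0.05 was reached by 1 of 7, and by 2019 of all 14957 genes. In DESeq2 0 passed, where 3.34% of all genes did. In normoxia 0 of 7 passed in edgeR, where 1.25% of all genes did. An unadjusted p under 0.05 was reached by 2 of 7, and by 1315 of all 14957 genes. In DESeq2 2 passed, NOTCH2 and JAG1, where 1.96% of all genes did. A call in one treatment or exposure and not in another does not show that the effects differ.

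Markers of other states and cell types were read beside these values. In hyperoxia with vehicle, where NOTCH2 and JAG1 rose, KRT8, KRT18, KRT19 and CDH1 fell (log2 differences -1.73, -2.13, -1.58 and -2.17, each called in edgeR). With ATRA, KRT8, KRT18, CDH1 and EPCAM fell (-1.13, -1.58, -1.54 and -3.10, each called in edgeR). NOTCH3 is prominent in mural cells. The summed level of PDGFRB, ACTA2, MYH11 and RGS5 was 24.6 to 88.8 CPM in hyperoxia and 15.4 to 39.3 CPM in normoxia, mostly from ACTA2 with 30 to 259 counts. ACTA2 was the only one of them called, higher in hyperoxia by 1.92 with vehicle (adjusted p = 0.000142, edgeR) and 1.40 with ATRA (adjusted p = 0.000239, edgeR), whereas MYH11 (-0.20 and -0.52) and RGS5 (-1.31 and -0.10) had differences of the other sign. PDGFRB, the defining receptor of pericytes, was at 0 in 12 of 14 libraries and had at most 4 counts. The part of these epithelial and mural genes in the oxygen differences was not tested.

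Another 51 genes of the pathway were examined as a list, and 43 were tested with vehicle and ATRA. The Delta-like ligands DLL1 and DLL4, the receptor NOTCH4, the Delta-like homologue DLK1, the fringe MFNG, the ubiquitin ligase NEURL1 and the targets HES5 and HEY2 were too low, with at most 31 counts in any library. In hyperoxia with vehicle 8 of 43 passed the test, 7 higher and 1 lower, or 18.6% against 17.5% of all genes, with a median log2 difference of 0.28 against 0.01 for all genes. With ATRA 10 of 43 passed, 9 higher and 1 lower, or 23.3% against 22.7%, with a median of 0.19 against 0.01. Without vehicle 9 of 44 passed, all higher, or 20.5% against 15.2%, and 8 of 45 without the library that stood apart, against 10.5% of all genes. With both directions counted together, the shares called were close to the background with vehicle and with ATRA. Called higher were 7 of 43 with vehicle, where 8.68% of all genes were, and 9 of 43 with ATRA, where 11.4% were. Without vehicle 9 of 44 were called higher, where 7.57% of all genes were, with a median of 0.07 against -0.10. The list was not tested as a set. The counts with vehicle and without vehicle moved when a library of the groups compared was left out, which leaves 1 library in its group. The share of all genes that passed moved the same way. Over the other alternatives the count with vehicle ranged from 4, in the fit of 14 libraries, to 17, in a fit of only the groups compared. Of all genes, 9.26% and 33% passed in these fits. The count without vehicle was 5 without the third ATRA library in hyperoxia, where 13.7% of all genes passed. It was 0 of 41 in a fit of only the groups compared, where 0.419% of all genes passed.

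The 3 oxygen comparisons contrast different libraries, but they are not independent, because their fits share libraries for the estimate of the spread. The 6 genes called in each of them were all higher in hyperoxia. They were TLE4, FBXW7, MIB2, MAML1, CREBBP and EP300, or 14% of the 43 tested, where 8.52% of all 14957 genes were called in all 3 and 4.05% were higher in all 3. TLE4 encodes a Groucho co-repressor that HES proteins recruit. FBXW7 encodes the ubiquitin ligase subunit that marks the Notch intracellular domain for degradation, and MIB2 a ligase that acts on ligands. MAML1 encodes a Mastermind co-activator, and CREBBP and EP300 the acetyltransferases it brings to target genes. FBXW7 lost its call without vehicle when the library that stood apart was left out, which left 5 of the 6, where 8.34% of all genes were called in all 3. With each library left out in turn, TLE4 and CREBBP kept their calls in all 10, 10 and 14 fits of the 3 comparisons. MAML1 lost its call with vehicle without any of the 4 vehicle libraries (adjusted p = 0.0519 to 0.123, edgeR), and with ATRA without the first ATRA library in normoxia or the third in hyperoxia (0.101 and 0.0841). EP300 lost its call with ATRA without the third ATRA library in normoxia (0.0761) and without vehicle when the second no-vehicle library in normoxia was left out (0.0657).

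TLE4 had the largest difference of the called pathway genes in each oxygen comparison. It measured 157 and 125 CPM with vehicle in hyperoxia and 24.7 and 25.9 CPM in normoxia, a log2 rise of 2.47 (standard error 0.27, adjusted p = 1e-06, edgeR). With ATRA it measured 41.1, 76.9 and 71.1 CPM in hyperoxia and 20.9, 33.1 and 20.6 CPM in normoxia, a rise of 1.34 (standard error 0.23, adjusted p = 0.000168, edgeR). Without vehicle it rose by 2.03 (standard error 0.29, adjusted p = 0.000221, edgeR), from 31.8 and 25.9 CPM to 110 and 127 CPM, and by 2.13 (standard error 0.30, adjusted p = 2.41e-05, edgeR) without the library that stood apart. In a fit of only the groups compared, the adjusted p without vehicle was 0.0527.

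The next largest with vehicle were FBXW7, higher by 1.06 (adjusted p = 0.0262), MIB2 by 0.99 (adjusted p = 0.0125), CREBBP by 0.99 (adjusted p = 0.000874) and EP300 by 0.84 (adjusted p = 0.000294, all edgeR). Leaving out any of the 4 vehicle libraries ended the FBXW7 call (adjusted p = 0.137 to 0.162), and leaving out either in normoxia or the second in hyperoxia ended that of MIB2 (0.0921 to 0.178). The inhibitor NUMBL was the gene that fell in hyperoxia with vehicle and with ATRA. With ATRA the next largest were MIB2 (1.21), FBXW7 (1.17), the fringe RFNG (1.0) and the ubiquitin ligase DTX2 (0.97), with adjusted p between 0.000268 and 0.00314 in edgeR. Without vehicle they were MAML1 (1.49), FBXW7 (1.28), CREBBP (1.25) and MIB2 (1.24), with adjusted p between 0.000396 and 0.0354 in edgeR. Without the library that stood apart these were 1.09, 0.79, 1.29 and 1.14, with adjusted p of 0.00213, 0.25, 0.000388 and 0.0286. In a fit of only the groups compared, none of the 4 was called (adjusted p = 0.123, 0.37, 0.068 and 0.307). The MIB2 call ended without the first or the second no-vehicle library in normoxia (adjusted p = 0.123 and 0.0846), and that of FBXW7 without any of 8 libraries (up to 0.25). RBPJ, the DNA-binding protein of the pathway, was called in none of the 5 comparisons.

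For ATRA against vehicle in hyperoxia, 1 of 43 pathway genes passed, or 2.33% against 2.21% of all genes. It was TLE4, which fell with a log2 difference of -1.17 (standard error 0.22, adjusted p = 0.00448, edgeR). Its 3 ATRA libraries lay below both vehicle libraries. The call was lost without the first vehicle library in hyperoxia (-1.0, adjusted p = 0.177, edgeR) and against the no-vehicle libraries (-0.92, adjusted p = 0.128, edgeR), in a range of 4.62e-08 to 0.185 over 20 alternatives. In normoxia 0 of 43 passed in edgeR, against 1.25% of all genes. An unadjusted p under 0.05 was reached by 3 of 43, and by 1315 of all 14957 genes. In DESeq2 1 passed, against 1.96% of all genes.

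**Figure D5:**
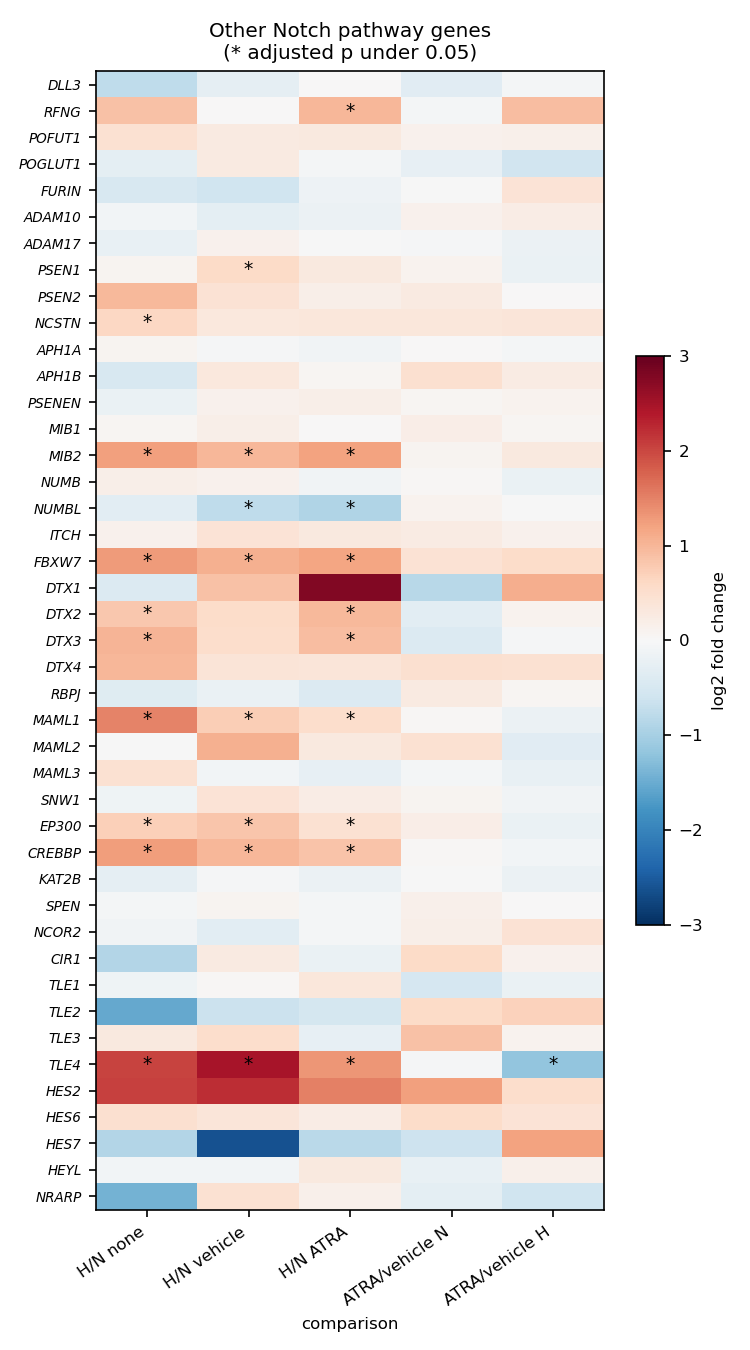
Log2 fold change (colour, red higher and blue lower) of the 43 other Notch pathway genes (rows) that were tested in all 5 comparisons (columns; H/N, 95% over 21% oxygen; none, no-vehicle libraries). An asterisk marks an adjusted p under 0.05 in edgeR. TLE4 is marked in the 3 oxygen comparisons, where it was higher, and with ATRA in 95% oxygen, where it was lower, and no gene is marked for ATRA in 21% oxygen.

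The genes whose log2 CPM was most like that of NOTCH3 over the 14 libraries, out of 15338 others, were SLC9A3R2 (Pearson r = 0.87), EHD2 (0.78), AES (0.78), EVA1C (0.77) and MZB1 (0.77). Without the library that stood apart, the values were 0.88, 0.80, 0.80, 0.84 and 0.83, and the genes then ranked 2, 14, 16, 6 and 7, so that others came before most of them. The libraries share groups, exposures and depth, so that these values describe the pattern and carry no test. MZB1 had a mean of only 4.93 counts per library, so that its pattern rests on few counts.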

How the data were processed

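RNA-seq libraries from A549 cells were prepared with a stranded kit. According to the submitters' processing notes, reads were trimmed with Trimmomatic 0.38, aligned to hg38 with HISAT2 and counted with HTSeq. The authors deposited raw counts per gene symbol, without normalization. The annotation release, and how strand and overlaps were handled, are not given in the sources used here, so reads from overlapping or antisense genes may be shared. HTSeq's 5 summary rows, which held 75.2% to 78.4% of a library's total, were left out.

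Of 15 libraries, 14 were grouped by their treatment labels and 1 with conflicting labels was left out. The analysis used edgeR 4.0.16 under R 4.3.3, with filterByExpr (minimum count 10, minimum total count 15), TMM normalization and a quasi-likelihood test whose p-values were adjusted by Benjamini-Hochberg over all genes tested. A single fit of 10 libraries in 4 groups gave the vehicle and ATRA comparisons (14957 genes), and a fit of 14 libraries in 6 groups gave the comparison without vehicle (15339 genes) and the CPM values. No 2 replicates agreed within sampling noise (chi-square per gene 3.98 to 31.5). Log2 CPM used a prior count of 2. Promoters and positions came from RefSeq (GRCh38.p14), which lists a promoter for 8 of 9 members, and transcript lengths from GENCODE. Alternatives were DESeq2 1.42.0, RLE size factors, no filter, only the groups compared, 14 libraries in 6 groups, controls without vehicle or both kinds together, and leaving out each library. Alternatives with 13 libraries, without the library that stood apart, were chosen after seeing the data. The scripts were tested on simulated data, and plots were drawn with matplotlib 3.10.9.

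All 9 members are named. From the pathway list, up to 5 called genes with the largest absolute log2 fold change in each comparison are named. Other pathway genes named (RBPJ, NUMBL and those with low counts) were chosen after their values were seen. The 5 genes most like NOTCH3 and the markers follow from a rule. The members and lists were chosen with earlier results of these data known. The result for 1 marker covered by the rule is not reported here.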

Additional observations from a re-analysis of the deposited data

Results flagged for a closer look

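The ATRA effect on NOTCH3 differed in direction between the oxygen exposures, with a difference of 2.31 on the log2 scale (hyperoxia minus normoxia). Every ATRA library lay above both vehicle libraries in hyperoxia and below both in normoxia. Against the no-vehicle libraries, the ATRA difference was 0.42 (standard error 0.34) in hyperoxia and -1.38 (standard error 0.33) in normoxia. Without the library that stood apart, it was 0.38 (standard error 0.38) in hyperoxia. The difference between the exposures was not tested, since NOTCH3 was chosen for it.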

How the results depend on the processing

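No paired analysis was possible because the labels give no replicate numbers shared across groups. Of 7 tested members, the count called in hyperoxia against normoxia with vehicle was 2, and 1 in a fit of 14 libraries in 6 groups. With ATRA it was 1, and 2 in DESeq2. Without vehicle it was 2, and 0 in a fit of only the groups compared. For ATRA against vehicle it was 0 in hyperoxia, and 1 with no filter. In normoxia it was 0, against 2 in DESeq2, 1 with no filter, 1 with both kinds of control together and 2 with these in 13 libraries. Leaving out each library gave 1 to 2 with vehicle, 1 with ATRA, 1 to 5 without vehicle, 0 for ATRA in hyperoxia and 0 to 2 for ATRA in normoxia. The count of 5 came from leaving out the second no-vehicle library in hyperoxia, which left the library that stood apart, where JAG2, LFNG and HES4 were at 0. Over all genes, 2616 were called with vehicle, against 4665 in only the groups compared, 1420 in 14 libraries and 4553 with both kinds of control in 13 libraries. With ATRA 3391 were called, and 1975 in 14 libraries. Without vehicle 2324 were called, and 58 in only the groups compared. For ATRA in hyperoxia 331 were called, against 499 in DESeq2, 522 with no filter, 116 in 14 libraries, 182 with both kinds of control, 66 with no-vehicle controls and 29 with the other no-vehicle control alone. For ATRA in normoxia 187 were called, against 293 in DESeq2, 300 with no filter, 70 in 14 libraries, 364 with both kinds of control in 13 libraries and 67 with no-vehicle controls. Leaving out each library gave 1386 to 3175, 2715 to 3359, 969 to 7364, 83 to 449 and 56 to 267 genes in the same order. Directions reversed for differences of tested members that were not called, and for no called one. These were JAG2 with vehicle (-0.0886 with both kinds of control), NOTCH1 for ATRA in hyperoxia (0.0561, 0.21 and 0.0086 with no-vehicle, the other no-vehicle and, in 13 libraries, both kinds of control), HES4 for ATRA in hyperoxia (1.07 with no-vehicle controls) and in normoxia (0.005 with both kinds, 0.25 with no-vehicle), and HES1 for ATRA in normoxia (-0.07 with no-vehicle controls). With each library left out, reversals fell in the ranges -0.004 to 0.52 for JAG2 with vehicle, -9.72 to 0.50 for JAG2 and -6.61 to 0.89 for HES4 without vehicle, where the low ends are fits to the library at 0 and are no bound, -0.29 to 0.0333 for NOTCH1 and -0.13 to 1.0 for LFNG for ATRA in hyperoxia, and -0.46 to 0.14 for NOTCH1, -0.0755 to 0.45 for JAG2 and -0.63 to 0.0948 for HES4 for ATRA in normoxia. The cause was not tested. Differences of HES1, HES4 and LFNG rest on few counts, which limits what could be detected.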

Other observations

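The library left out of all comparisons has a title that names hyperoxia and a treatment label that names a differentiation treatment. It held 868 counts of NOTCH2, 1024 of JAG1, 203 of NOTCH3, 211 of NOTCH1 and 142 of JAG2. LFNG had 5 counts there, HES1 23, HES4 27 and HEY1 1. As CPM over its counts on genes, NOTCH2 was at 197, JAG1 at 232 and NOTCH3 at 46.0.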
